A study of Homo sapiens with 9 samples.

Results

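The genes of chromosome 13 were followed in 2 *EPCART*-del clones of LNCaP, a luminal prostate cancer cell line. Members were all genes of the table of protein-coding genes that GENCODE version 44 places on chromosome 13 (GRCh38, matched by Ensembl identifier without its version number) and whose mean over the 9 libraries was at least 1 normalized count. The table held 322 genes of the chromosome, of which 281 were members, out of 17530 genes with such a mean and 19984 in all. Of the 41 genes left out, 20 had no read in any library. *EDNRB* (mean 1.53) and *C1QTNF9* (1.57) lay just inside the minimum, and RNF113B (0.939) and MAB21L1 (0.913) just outside. The chromosome was chosen by the log2 fold changes of its genes against WT, which were mostly below 0 in an earlier look at these libraries, so its medians and counts of calls against WT are given as a description.

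RNA-seq was done on the clones del-4 and del-56, which lack the promoter and the first exons of the long noncoding RNA gene *EPCART* after CRISPR-Cas9 editing, and on 1 WT clone that kept them. Each clone was grown as 3 cultures for 48 hours in RPMI medium with serum and gave 3 libraries of polyadenylated RNA. Each group is 1 clone, so the effect of the deletion and other differences between clones cannot be told apart, and p-values measure the spread between cultures of a clone. *EPCART* is noncoding and lies on chromosome 2, and it was not analysed here. The sum of reads on genes ranged from 91074556 to 118877134 per library. The luminal prostate markers KLK3, KLK2, FOLH1 and TMPRSS2 had between 5012 and 72455 normalized counts in every library, while KRT5, PTPRC and PECAM1, which mark basal, white blood and endothelial cells, stayed at or below 6.03. VIM (540.2 to 1164) and COL1A1 (937 to 1359), genes of mesenchymal cells, were present in all 9 libraries.

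Chromosome 13 is an acrocentric and comparatively gene-poor chromosome, whose short arm carries ribosomal RNA gene repeats and whose long arm carries nearly all of its protein-coding genes. It is known in cancer for *RB1*, the retinoblastoma protein that holds cells back from DNA replication, and *BRCA2*, a protein of the repair of broken DNA, and loss of part of its long arm is common in prostate tumors. Its other genes include the glypicans *GPC5* and *GPC6*, which carry heparan sulfate chains on the cell surface, protocadherins and SLITRK adhesion proteins, and many housekeeping genes of mitochondria, ubiquitin transfer and protein glycosylation. In bulk RNA, fewer cells with a transcript and less of it per cell cannot be told apart.

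The largest shared fall and one of the largest shared rises were each made by neighbouring genes. The start regions of these genes are shown first because both members of each pair moved together. Of the members, 244 matched a promoter window of RefSeq (build GRCh38.p14, 250 bases before to 50 after the start), and the window nearest to the GENCODE start was taken. CG pairs are in capitals, and each window is written 5′ to 3′ on the strand of its gene. *LACC1* is on the plus strand (chr13:43878928-43879227), *CCDC122* on the minus strand (chr13:43879691-43879990), *GPC5* on the plus strand (chr13:91398371-91398670) and *GPC6* on the plus strand (chr13:93226557-93226856).
LACC1: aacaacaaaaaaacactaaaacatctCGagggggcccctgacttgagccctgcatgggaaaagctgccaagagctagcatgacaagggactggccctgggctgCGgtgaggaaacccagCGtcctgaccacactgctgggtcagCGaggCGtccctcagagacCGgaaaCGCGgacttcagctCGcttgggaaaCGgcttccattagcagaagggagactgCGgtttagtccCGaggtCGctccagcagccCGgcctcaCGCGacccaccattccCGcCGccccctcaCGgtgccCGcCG
CCDC122: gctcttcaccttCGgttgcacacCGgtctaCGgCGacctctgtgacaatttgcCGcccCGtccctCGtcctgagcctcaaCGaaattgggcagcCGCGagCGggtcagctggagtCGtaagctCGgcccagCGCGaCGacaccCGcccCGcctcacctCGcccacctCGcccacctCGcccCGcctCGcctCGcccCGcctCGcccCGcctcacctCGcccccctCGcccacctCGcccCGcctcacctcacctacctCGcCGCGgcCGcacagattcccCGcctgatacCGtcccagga
GPC5: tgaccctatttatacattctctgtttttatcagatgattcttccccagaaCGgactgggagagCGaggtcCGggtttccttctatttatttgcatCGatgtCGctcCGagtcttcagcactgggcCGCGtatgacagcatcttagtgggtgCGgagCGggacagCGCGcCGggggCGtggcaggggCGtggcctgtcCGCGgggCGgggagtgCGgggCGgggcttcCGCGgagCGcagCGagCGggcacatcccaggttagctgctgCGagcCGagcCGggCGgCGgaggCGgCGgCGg
GPC6: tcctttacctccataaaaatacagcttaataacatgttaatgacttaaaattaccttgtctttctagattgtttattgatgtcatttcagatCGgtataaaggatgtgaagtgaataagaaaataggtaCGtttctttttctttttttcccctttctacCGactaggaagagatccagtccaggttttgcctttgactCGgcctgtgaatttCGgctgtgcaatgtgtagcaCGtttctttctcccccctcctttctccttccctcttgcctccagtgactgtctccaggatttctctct
The *LACC1* window held 21 CG pairs, a number reached by 39.5% of all 35116 windows of the table, and the *CCDC122* window held 37, reached by 11.3%. The *GPC5* window held 33 (reached by 17.2%) and the *GPC6* window 6 (reached by 66.3%), so the windows of the glypicans, which rose together, differed more in CG pairs than those of the pair that fell. The median was 26 over 1 window per member and 14 over all windows.

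The median log2 fold change of the 281 genes against WT was -0.17 for del-4, and -0.16 for del-56, beside medians of -0.0025 and -0.0011 over all genes tested. Log2 fold changes were taken on log2(normalized count + 1), which understates the change of genes with few reads. Relative to the mean of the WT libraries, the median over chromosome 13 genes ranged from -0.18 to -0.16 over the 3 del-4 libraries, from -0.18 to -0.15 over those of del-56, and from -0.0064 to 0.0042 over those of WT. All 6 deletion libraries thus lay below all 3 WT libraries. Chromosome 16 had the lowest median (-0.34 for del-4 and -0.31 for del-56), chromosome 13 the next, and chromosome 2 the third (-0.15 and -0.16).

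A gene was called lower or higher at an adjusted p under 0.05 (limma on all 17530 genes, Benjamini-Hochberg). In del-4, 115 members were lower, beside 18.8% of all genes, and 18 were higher, beside 18.9% of all genes. In del-56, 116 members were lower, beside 19.4% of all genes, and 23 were higher, beside 18.2% of all genes. Most of these differences were small. The median log2 fold change of the genes called lower was -0.31 for del-4 and -0.29 for del-56, and 92 of the 115 in del-4 and 91 of the 116 in del-56 were within 0.5 of 0. Past a log2 fold change of 1 in size, 11 members (3.91%) were lower in del-4, beside 2.86% of all genes. In the same clone 6 (2.14%) were higher, beside 1.87%. In del-56, 15 (5.34%) were lower, beside 2.70% of all genes, and 6 (2.14%) were higher, beside 2.10%. The count of 6 in del-4 became 11 without WT replicate 1 and 9 without del-4 replicate 3.

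**Figure D1:**
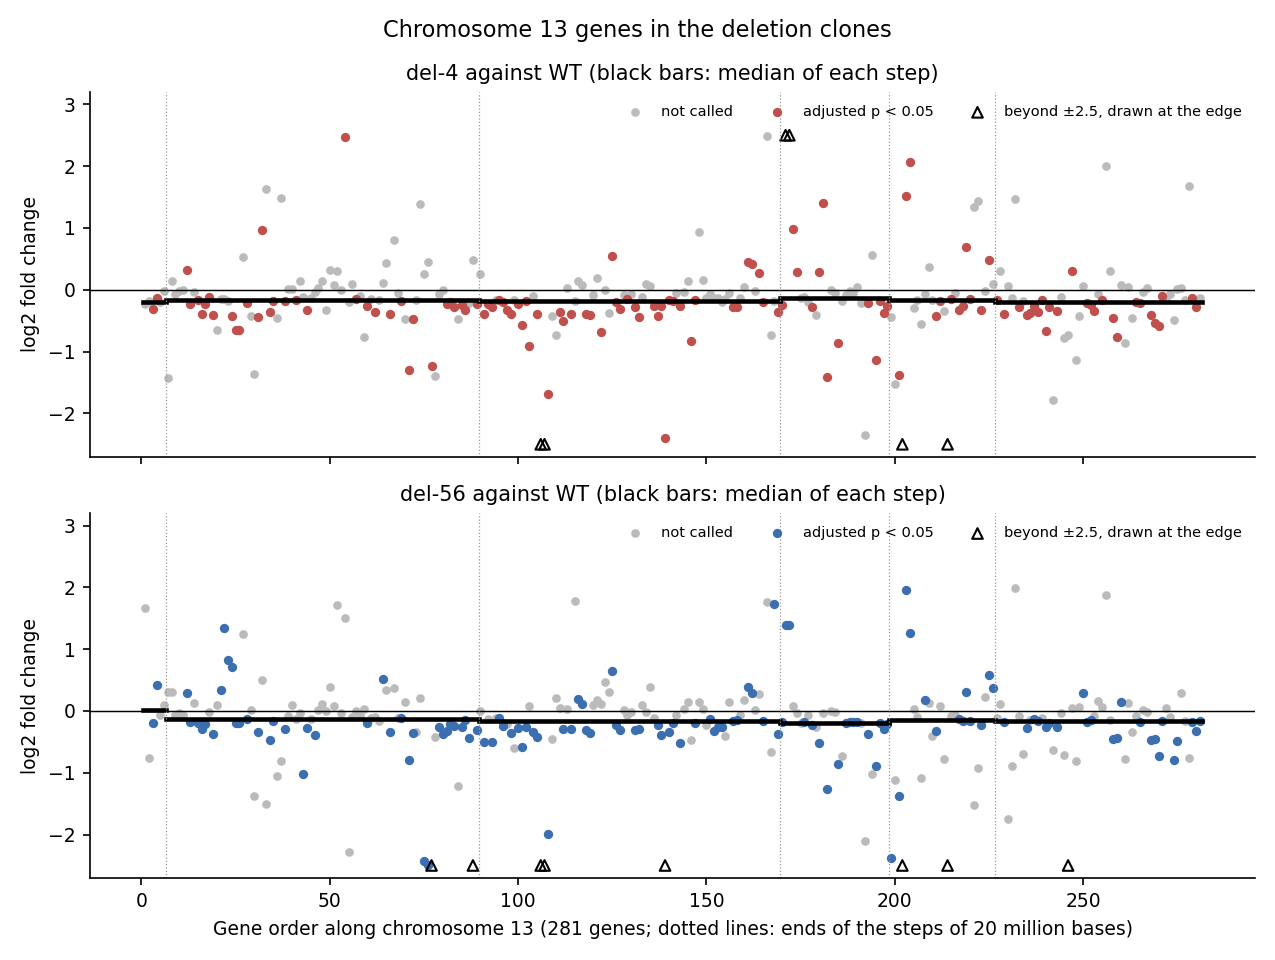
Log2 fold change of each of the 281 chromosome 13 genes (y axis) against WT, in order along the chromosome (x axis), for del-4 (top) and del-56 (bottom). Colored points were called at an adjusted p under 0.05, triangles lie beyond 2.5 in size and are drawn at the edge, and black bars are the median of each step of 20 Mb, which lie below 0 in every step except the first one of del-56.

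By position, the fall was not carried by a single stretch. Members were placed by the lowest coordinate of the gene into 6 steps of 20 Mb (megabases). The first step, from 0 to 20 Mb, held 6 genes, and its median log2 fold change was -0.19 for del-4 and 0.014 for del-56. The step from 20 to 40 Mb held 83 genes, with medians of -0.16 for del-4 and -0.13 for del-56. From 40 to 60 Mb there were 80 genes, with medians of -0.18 and -0.16. From 60 to 80 Mb, the medians over 29 genes were -0.13 for del-4 and -0.19 for del-56. From 80 to 100 Mb they were -0.16 and -0.15 over 28 genes, and from 100 to 120 Mb -0.20 and -0.17 over 55 genes. Each step from 20 Mb on thus had a median between -0.20 and -0.13 in both clones, and the share of its genes below 0 was 71.1% to 78.8% in del-4 and 64.3% to 89.7% in del-56.

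Library by library, the medians of these 5 steps were below those of all WT libraries in each of the 6 deletion libraries. They ranged from -0.22 to -0.079 for del-4, from -0.24 to -0.099 for del-56 and from -0.019 to 0.050 for WT. The clones did not overlap each other in the step from 60 to 80 Mb, where the del-4 libraries were at -0.12 to -0.079 and the del-56 libraries at -0.24 to -0.19, nor in the step from 100 to 120 Mb, where they were at -0.20 in all 3 and at -0.18 to -0.15. In the first step, the del-56 libraries (-0.070 to 0.060) overlapped the WT libraries (-0.024 to 0.045), and the del-4 libraries (-0.22 to -0.10) did not. Its del-56 median, over 6 genes, ranged from -0.062 to 0.056 across the other settings tried, changing sign. Its del-4 median was -0.087 without WT replicate 2 and -0.29 without del-4 replicate 2.

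**Figure D2:**
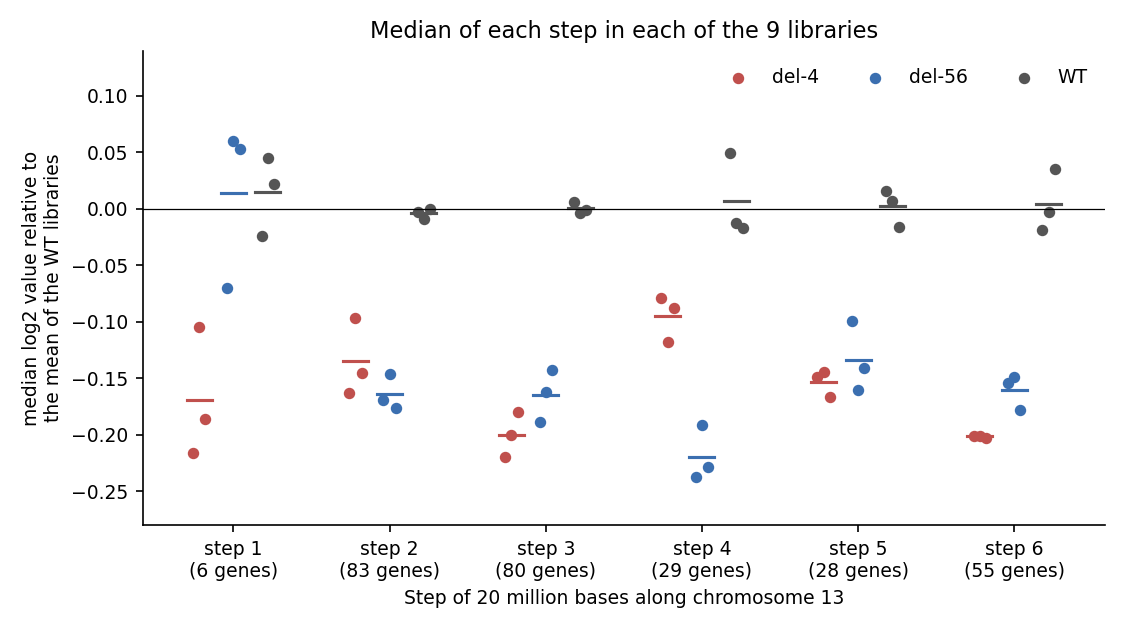
Median of log2(normalized count + 1) relative to the mean of the WT libraries (y axis) over the genes of each step of 20 Mb (x axis). Each point is 1 library and each line the mean of 3, and in steps 2 to 6 all 6 deletion libraries lie below the WT libraries.

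The counts of called genes had the same spread-out form. Genes called lower numbered 30 of 83 for del-4 and 33 for del-56 from 20 to 40 Mb, 39 of 80 and 36 from 40 to 60 Mb, 9 of 29 and 15 from 60 to 80 Mb, 10 of 28 and 9 from 80 to 100 Mb, and 25 of 55 and 22 from 100 to 120 Mb. As shares of the genes of a step, these ran from 31.0% to 48.8% for del-4 and from 32.1% to 51.7% for del-56, beside 18.8% and 19.4% of all genes and 40.9% and 41.3% of the members. The count of 15 became 9 without del-56 replicate 3, and the count of 22 became 13 without WT replicate 2 and 12 without del-56 replicate 3. Genes called higher numbered 3 (3.61%) for del-4 and 6 (7.23%) for del-56 from 20 to 40 Mb, 4 and 6 of 80 from 40 to 60 Mb, 6 (20.7%) for del-4 and 2 (6.90%) for del-56 from 60 to 80 Mb, 4 (14.3%) and 6 (21.4%) from 80 to 100 Mb, and 1 and 2 in the last step. The share called higher was near that of all genes (18.9%) from 60 to 80 Mb in del-4. It was also near it (18.2%) from 80 to 100 Mb in del-56. The counts there ranged from 4 to 6 and from 5 to 6 with 1 library left out. The 6 in del-4 include *PCDH20* and *ENSG00000197991*, which overlap on the same strand and cannot be counted apart. Nothing particular to these stretches is read from the shares. The higher count of 3 became 5 without WT replicate 1, the 6 from 40 to 60 Mb became 3 without del-56 replicate 3, and in the last step the 1 became 2 without WT replicate 1 and the 2 became 1 without WT replicate 2 or any 1 del-56 library. In the first step 2 of 6 genes were lower in del-4, 1 of them without WT replicate 2, del-4 replicate 1 or del-4 replicate 3, and none was higher. In del-56, 1 of 6 was lower and 1, *PSPC1*, was higher.

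The gene nearest to the median of each step and the most read genes give the scale of the difference in reads. *ZMYM5*, a zinc finger protein gene near the median of the first step, had 573 ± 44.4 normalized counts in WT, 497 ± 44.7 for del-4 and 549 ± 46.1 for del-56 (mean ± SD, n = 3), and *ZMYM2*, the most read gene there, had 7202 ± 168, 7095 ± 320.4 and 7668 ± 179.9. *NUP58*, a subunit of the nuclear pore channel and the median gene of the step from 20 Mb, had 9101 ± 258, 8042 ± 425 and 8136 ± 198, and the chromatin protein gene *HMGB1* had 72466 ± 3879, 60386 ± 582 and 63237 ± 2139. *HMGB1* has many processed pseudogenes that can share its reads.
From 40 Mb on, *EBPL* near the median had 9299 ± 99.4 in WT, 8198 ± 512 for del-4 and 8089 ± 312 for del-56, while *TPT1*, a translationally controlled protein gene with many pseudogenes and the most reads on the chromosome, had 178308 ± 13046, 196261 ± 6932 and 204503 ± 7884. The log2 fold changes of *TPT1* were 0.14 (adjusted p = 0.094, not called) and 0.20 (adjusted p = 0.029), its del-4 libraries overlapped WT, and the del-56 call was lost without WT replicate 2 or 3 or del-56 replicate 2 or 3 (adjusted p = 0.086 to 0.13), with no filter, with the replicate block and with quantile normalization, where the value was 0.081. In del-4, *TPT1* would be called higher without WT replicate 1 (0.20, adjusted p = 0.014). It would also be called there with DESeq2, edgeR, a minimum mean of 10 or 1 fit of all 9 libraries (adjusted p = 0.0077 to 0.048). *DACH1*, a transcription factor gene near the median from 60 Mb on, had 335 ± 19.7, 308 ± 30.4 and 298 ± 73.1, and its groups overlapped. *TGDS*, near the median from 80 Mb on, had 836 ± 105, 682 ± 46 and 853 ± 50.7, and *ABCC4*, an exporter of cyclic nucleotides and prostaglandins, had 26991 ± 1633, 25863 ± 819 and 30646 ± 1058. In the last step, *BIVM-ERCC5*, which overlaps *BIVM* and *ERCC5*, had 4295 ± 11.7, 3597 ± 117 and 3911 ± 187, and *EFNB2*, the membrane-bound ligand of EphB receptors, had 18613 ± 345, 11768 ± 527 and 15614 ± 515.

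The fall was most uniform among genes of middle to high level. Of the 137 members with a mean of 1000 to 10000 normalized counts, 118 (86.1%) were below 0 for del-4 and 111 (81.0%) for del-56, with medians of -0.18 and -0.16, while all genes of that level had medians of -0.0019 and -0.0053. The 25 members above 10000 had medians of -0.061 and -0.096. The 46 members with a mean of 100 to 1000 had medians of -0.16 and -0.11. The 36 members with a mean of 10 to 100 had larger medians of -0.27 and -0.43, with fewer genes below 0 (66.7% and 61.1%). The 37 members with a mean of 1 to 10 had medians of -0.15 for del-4 and -0.64 for del-56, with 1 gene called for del-4 and 2 for del-56. Of all calls against WT, 90 for del-4 and 94 for del-56 were of genes with a mean of 1000 to 10000, so the counts above rest mainly on well-read genes. The share called among all genes of that level was not counted, so these calls are not read as a trait of the level.

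The largest falls in both deletion clones were those of *LACC1* and *CCDC122*. *LACC1* (ENSG00000179630.11, chromosome 13, 43879284 to 43893932, plus strand) encodes a purine nucleoside enzyme of macrophages, and *CCDC122* (ENSG00000151773.13, 43823909 to 43879740, minus strand) a coiled-coil protein. Their starts lie 456 bases apart on opposite strands, with the first bases of the genes overlapping. *LACC1* had normalized counts of 237, 179 and 238 in WT, 3.84, 0 and 0 for del-4, and 0, 0 and 0 for del-56. *CCDC122* had 201, 169.9 and 151 in WT, 0, 1.99 and 2.01 for del-4, and 0, 0 and 0 for del-56. Both genes were thus read in every WT library and at or near 0 in all 6 deletion libraries.
All 3 del-56 libraries were at 0 for both. With these set to 3 reads per library, *LACC1* was 68.7-fold lower and *CCDC122* 54.8-fold lower than in WT. Low read counts were mostly even numbers, so both reads of a pair may have been counted. The floor may then stand for fewer than 3 fragments, and the folds are not taken as lower bounds. In del-4, the log2 fold change was -7.00 (SE 0.62, adjusted p = 8.6e-05) for *LACC1* and -6.38 (SE 0.49, adjusted p = 4.1e-05) for *CCDC122*. *ENSG00000281883*, an entry that overlaps *LACC1* on the same strand and may share its reads, had 185, 162 and 207 in WT, 44.2, 61.8 and 66.3 for del-4, and 42, 58.2 and 38.8 for del-56. The nearest member before the pair, *ENOX1*, lies 92312 bases away and had log2 fold changes of -0.39 and -0.43. A change of the size seen in the pair was thus not shared by *ENOX1*.

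*MBNL2*, a splicing regulator of the muscleblind family, had 305, 324 and 332 in WT, 1.92, 9.96 and 2.01 for del-4, and 5.72, 10.0 and 4.85 for del-56. Its log2 fold change was -6.13 for del-4 (SE 0.50, adjusted p = 6.1e-05) and -5.41 for del-56 (SE 0.30, adjusted p = 4.4e-06), and no deletion library came near a WT library. Its neighbour *RAP2A*, 40049 bases away, had -0.14 and -0.09.
*SLITRK5* and *SLITRK6* are neuronal adhesion proteins of a single family. *SLITRK6* had 1136, 1044 and 1124 in WT, 451, 428 and 389.7 for del-4, and 437, 438 and 397 for del-56. Its log2 fold change was -1.38 for del-4 (SE 0.084, adjusted p = 1.3e-05) and -1.38 for del-56 (SE 0.082, adjusted p = 6.5e-06). *SLITRK5* had 94.7, 114 and 109 in WT, 13.4, 12 and 10.0 for del-4, and 9.54, 0 and 0 for del-56, with log2 fold changes of -3.07 for del-4 (SE 0.26, adjusted p = 7.0e-05) and -5.60 for del-56 (SE 0.85, adjusted p = 0.001). The *SLITRK5* reads of del-56 came from replicate 1 alone.
*PHF11*, a zinc finger protein gene read at a low level, had 29, 22.2 and 41.5 in WT, 1.92, 5.98 and 9.04 for del-4, and 9.54, 0 and 2.43 for del-56, and all 6 deletion libraries lay below the WT libraries. Its log2 fold change was -2.39 for del-4 (SE 0.54, adjusted p = 0.0088) and -3.23 for del-56 (SE 0.80, adjusted p = 0.013), and the del-56 call was lost without WT replicate 1 (adjusted p = 0.056) or WT replicate 3 (adjusted p = 0.071). With a pseudocount of 5 its del-56 value was -2.10.

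**Figure D3:**
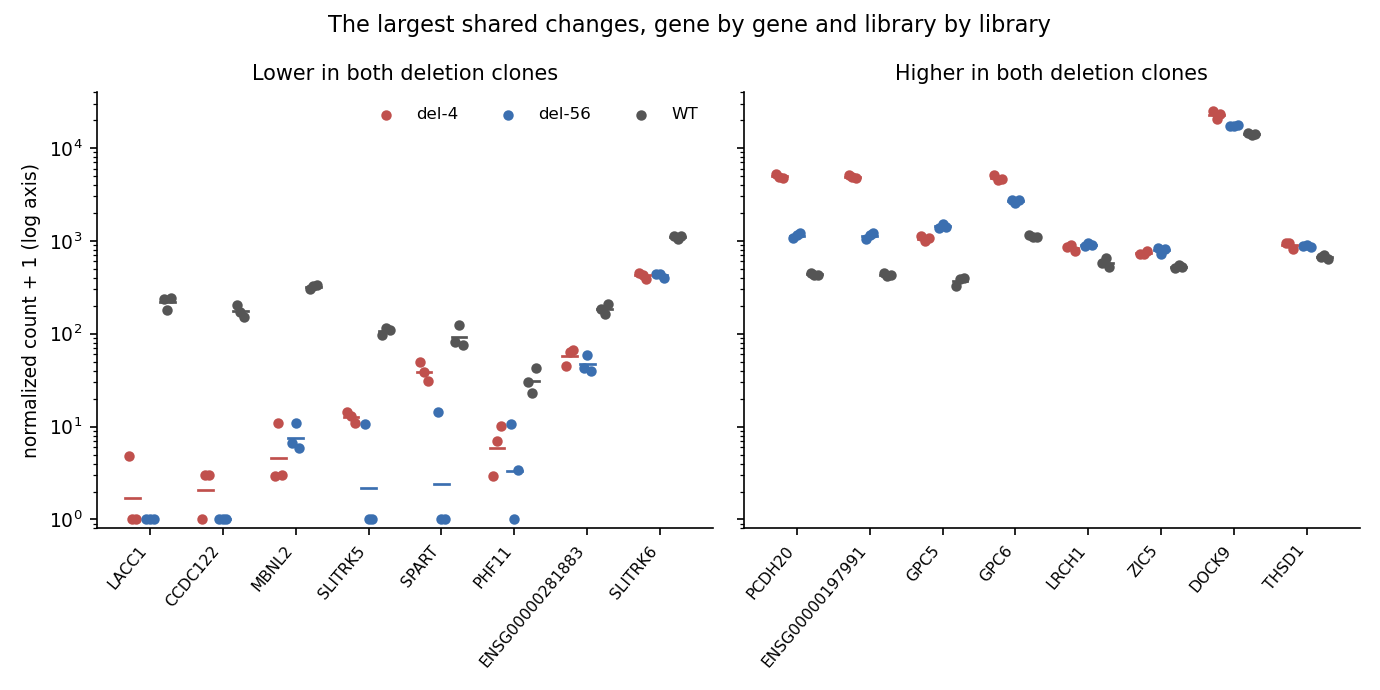
Normalized count + 1 on a log axis for the 8 largest falls (left) and 8 largest rises (right) shared by the deletion clones, called in both and without overlap with WT. Each point is 1 library and each line the mean of 3 on the log scale, and LACC1 and CCDC122 sit at or near 0 in the deletion clones with 151 to 238 in WT.

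Of the 244 members with a mean of at least 10, 10 went against the fall. They were called higher in both clones with all 6 deletion libraries above the WT libraries. By the same rule, 91 were lower. The share of all genes that meet this rule was not counted, so nothing is read from the 10 or the 91 as counts. Both comparisons use the same WT libraries, so their values are given side by side and their agreement is no result. *PCDH20*, a protocadherin of cell adhesion, rose the most. It had normalized counts of 448, 424 and 428 in WT, 5182, 4854 and 4762 for del-4, and 1061, 1153 and 1208 for del-56. Its mean was 11.4-fold that of WT for del-4 and 2.63-fold for del-56. Its log2 fold change was 3.51 for del-4 (SE 0.055, adjusted p = 2.7e-08) and 1.39 for del-56 (SE 0.081, adjusted p = 5.8e-06). *ENSG00000197991* overlaps *PCDH20* on the same strand and had nearly the same values (means of 431 ± 13.5 in WT, 4889 ± 231 for del-4 and 1133 ± 72.2 for del-56), so the entries cannot be counted apart and stand for 1 rise.

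*GPC5* and *GPC6* are adjacent on the plus strand, 353125 bases apart. *GPC5* had 325, 388 and 397 in WT, 1112, 994 and 1067 for del-4, and 1370.1, 1508 and 1411 for del-56. Its rise was 1.52 for del-4 (SE 0.10, adjusted p = 2.0e-05) and 1.95 for del-56 (SE 0.097, adjusted p = 2.4e-06). *GPC6* had 1159, 1110.0 and 1100.1 in WT, 5084, 4505 and 4634 for del-4, and 2778, 2534 and 2762 for del-56, a rise of 2.08 for del-4 (SE 0.055, adjusted p = 3.8e-07) and 1.26 for del-56 (SE 0.056, adjusted p = 1.2e-06). *GPC6* was higher in del-4 than in del-56 (log2 difference 0.82 (SE 0.058, adjusted p = 9.5e-05)), and *GPC5* was lower there (-0.44 (SE 0.067, adjusted p = 0.0042)), so the glypicans rose together against WT and differed in opposite directions between the clones.
The other rises were smaller. *LRCH1*, a leucine-rich repeat protein gene, had 582, 651 and 518 in WT, 859, 902 and 779 for del-4, and 888, 954 and 892 for del-56, with log2 fold changes of 0.54 and 0.65. *DOCK9*, an exchange factor for the GTPase CDC42, had 14459, 13615 and 14136 in WT, 24847, 20591 and 22921 for del-4, and 17189.6, 17135 and 17589.8 for del-56, with 0.69 and 0.30. *ZIC5*, a zinc finger transcription factor gene, had 513, 545 and 518 in WT, 727, 716 and 770.4 for del-4, and 833, 713 and 817 for del-56, with 0.49 and 0.58. These 3 genes had at most 1.62 times the WT mean.
*THSD1*, a membrane protein with a thrombospondin repeat, had 669.7, 703 and 629.7 in WT, 953, 947 and 825 for del-4, and 877, 901 and 850.0 for del-56, with 0.44 and 0.39. *VPS36*, a subunit of the ESCRT-II complex that sorts ubiquitinated cargo to lysosomes, had 1313, 1338 and 1197 in WT, 1782, 1726 and 1650.3 for del-4, and 1563, 1619 and 1508 for del-56, with 0.42 and 0.29. *THSD1* and *VPS36* overlap on the same strand, so their reads may be shared in part. *EEF1AKMT1*, a lysine methyltransferase of elongation factor 1A, had 954, 917 and 903 in WT, 1225, 1066 and 1193 for del-4, and 1043, 1209 and 1134 for del-56, with 0.33 and 0.28, and its del-56 call was lost without WT replicate 2 or 3 or del-56 replicate 2 or 3 (adjusted p = 0.053 to 0.061).

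The comparison of del-4 with del-56 does not involve WT and played no part in the choice of the chromosome. Here the median log2 fold change of the members was -0.033, beside -0.0019 over all genes. In del-4, 30 members (10.7%) were lower, beside 7.18% of all genes, and 26 (9.25%) were higher, beside 8.64%. Past a log2 fold change of 1, 3 (1.07%) were lower, beside 1.31% of all genes, and 11 (3.91%) were higher, beside 1.29%. The 11 include overlapping entries that can share reads, *SOHLH2* with *CCDC169-SOHLH2* and *PCDH20* with *ENSG00000197991*. They also include genes with a mean under 10, so they are not 11 separate, well-read genes. The counts depended on single libraries. The count of 30 ranged from 14 to 24 with 1 library left out, being 14, 19 and 15 without del-4 replicates 1, 2 and 3 and 18 and 15 without del-56 replicates 2 and 3. The count of 26 ranged from 14 to 24, being 14 without del-4 replicate 3 and 17 and 15 without del-56 replicates 2 and 3. The count of 11 was 7 without del-4 replicate 3. The median moved to -0.015 without del-4 replicate 2 and -0.011 without del-56 replicate 2.

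Several of the largest differences between the deletion clones belonged to neighbouring genes. *TNFRSF19*, a receptor of the tumor necrosis factor receptor family, *MIPEP*, the mitochondrial intermediate peptidase, and *C1QTNF9B*, a secreted C1q-like protein gene, follow one another, with 54085 bases between the first 2 and 1699 between the last 2. *TNFRSF19* had 3628, 3461 and 3397 in WT, 2693, 3725 and 3072 for del-4, and 8980.3, 8739 and 8772 for del-56. *MIPEP* had 4146, 4428 and 4059 in WT, 3418, 4103 and 3606 for del-4, and 7077, 7533 and 7809 for del-56. *C1QTNF9B* had 177, 187 and 194 in WT, 142, 141 and 129.6 for del-4, and 276, 328 and 314 for del-56. In all 3 genes, every del-56 library was above every del-4 and WT library.
The log2 difference of del-4 from del-56 was -1.49 (SE 0.10, adjusted p = 7.3e-05) for *TNFRSF19*, -1.01 (SE 0.069, adjusted p = 7.7e-05) for *MIPEP* and -1.14 (SE 0.14, adjusted p = 0.0012) for *C1QTNF9B*. Against WT they rose in del-56, by 1.34, 0.83 and 0.71 on the log2 scale. In del-4, *TNFRSF19* was at -0.16 (adjusted p = 0.28) and *MIPEP* at -0.19 (adjusted p = 0.064), and both would be called lower without del-4 replicate 2 (-0.28 and -0.26, adjusted p = 0.023 and 0.012). *MIPEP* would also be called lower in del-4 with 1 fit of all 9 libraries, edgeR, DESeq2, a minimum mean of 10, the replicate block or libraries rescaled to the same total (adjusted p = 0.015 to 0.027). *C1QTNF9B* was lower in del-4 (-0.43, adjusted p = 0.041), a call that was lost whichever of the 6 libraries was left out (adjusted p = 0.056 to 0.10) and with DESeq2, the replicate block or quantile normalization (adjusted p = 0.061 to 0.11).
Beyond *C1QTNF9B*, *SPATA13*, an exchange factor for small GTPases, differed between the clones by -0.46 (SE 0.065, adjusted p = 0.0029) but was below WT in both clones (-0.66 and -0.20), and the del-56 call against WT was lost without WT replicate 2 or 3 or del-56 replicate 2 or 3 (adjusted p = 0.071 to 0.097), with no filter (adjusted p = 0.056) or with the replicate block (adjusted p = 0.052). The rise of del-56 was therefore bounded on that side between *C1QTNF9B* and *SPATA13*.

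A second stretch went the other way. *SPART*, which encodes spartin, a protein of lipid droplets and mitochondria, *CCDC169-SOHLH2*, a readthrough entry, and *SOHLH2*, a germ-cell transcription factor, are adjacent on the minus strand, and *SPART* lies 3796 bases from *CCDC169-SOHLH2*. *SOHLH2* had 94.7, 92.7 and 99.9 in WT, 98, 119.5 and 127 for del-4, and 9.54, 34.1 and 14.6 for del-56. *CCDC169-SOHLH2*, which shares reads with it, had 81.2, 75.3 and 74.5 in WT, 93.2, 111 and 114 for del-4, and 8.59, 20.1 and 12.1 for del-56. For both, the 3 del-56 libraries lay below the 6 others, and the log2 difference of del-4 from del-56 was 2.68 (SE 0.43, adjusted p = 0.0053) and 2.94 (SE 0.34, adjusted p = 0.0011).
*SPART* had 81.2, 122 and 75.4 in WT, 48, 37.8 and 30.1 for del-4, and 13.4, 0 and 0 for del-56. It was lower than WT in both clones, with -1.23 for del-4 (SE 0.28, adjusted p = 0.01) and -5.24 for del-56 (SE 0.95, adjusted p = 0.0028). The del-4 call was lost with 1 fit of all 9 libraries (adjusted p = 0.20). The difference between the clones, 4.00 (SE 1.00, adjusted p = 0.032), was lost without any 1 library other than del-56 replicate 1 (adjusted p = 0.10 to 0.14), with DESeq2 (adjusted p = 0.24) and with no filter (adjusted p = 0.090), and was 2.48 with a pseudocount of 5. The nearest well-read gene beyond *SPART*, *RFXAP*, had -0.07 for del-4 (adjusted p = 0.39) and -0.27 for del-56 (adjusted p = 0.011). The del-56 call of *RFXAP* was lost without WT replicate 3 (adjusted p = 0.051). No end of the del-56 fall at *SPART* is read from these values.

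**Figure D4:**
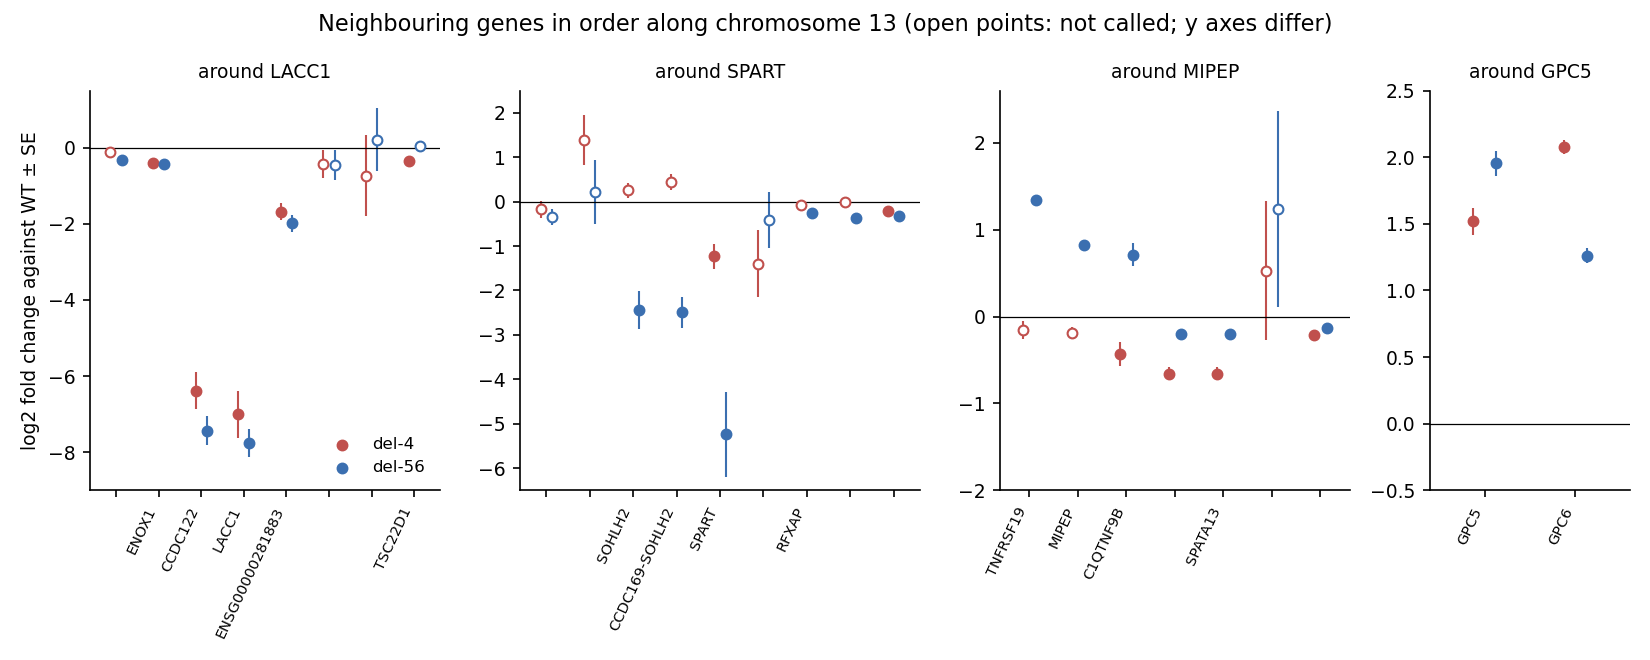
Log2 fold change against WT (y axis, ± SE) of the members around LACC1, SPART, MIPEP and GPC5, in order along the chromosome (x axis, with labels for the genes named in the text). Filled points were called at an adjusted p under 0.05, open points were not, and the panels show LACC1 and CCDC122 at fitted values of -7.76 to -6.38 and TNFRSF19, MIPEP and C1QTNF9B at 0.71 to 1.34 in del-56 and -0.43 to -0.16 in del-4.

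Other members differed between the clones singly. *LCP1*, the actin-bundling protein L-plastin, had normalized counts of 11497, 11554 and 10705 in WT, 7138, 7018 and 6774 for del-4, and 11556, 12689.8 and 12097 for del-56, and del-4 lay below the other groups (-0.80 (SE 0.041, adjusted p = 1.9e-05) against del-56, -0.69 against WT). *TSC22D1*, a leucine zipper protein gene, had 12121, 12794 and 12854 in WT, 9852, 9919 and 9786 for del-4, and 12776, 13284 and 12844 for del-56, again with del-4 lowest (-0.40 (SE 0.028, adjusted p = 9.5e-05) against del-56). *EFNB2* was lower than WT in both (-0.66 in del-4, -0.25 in del-56), with a log2 difference of del-4 from del-56 of -0.41 (SE 0.041, adjusted p = 5.5e-04). In these 3 genes the groups of del-4 and del-56 did not overlap.
*SPRY2*, an inhibitor of receptor tyrosine kinase signaling, had 119, 171 and 126 in WT, 70.1, 117 and 124 for del-4, and 28.6, 24.1 and 24.3 for del-56, with del-56 lowest (1.93 (SE 0.28, adjusted p = 0.0035) between the clones). *SHISA2*, an inhibitor of Wnt and FGF receptor maturation, had 7.73, 25.1 and 5.66 in WT, 23, 33.9 and 38.2 for del-4, and 5.72, 4.02 and 7.28 for del-56, with 2.29 (SE 0.39, adjusted p = 0.0069) between the clones, and neither clone was called against WT here. In del-4 (1.48, adjusted p = 0.064) it would be called higher without WT replicate 2 (2.07, adjusted p = 0.011), with 1 fit of all 9 libraries, a minimum mean of 10, a pseudocount of 5 or quantile normalization (adjusted p = 0.036 to 0.050). *EPSTI1*, an interferon-induced gene, had 85, 77.2 and 60.3 in WT, 40.3, 39.8 and 36.2 for del-4, and 97.3, 65.3 and 72.8 for del-56. Its difference of -0.98 (SE 0.24, adjusted p = 0.031) was lost whichever library was left out (adjusted p = 0.054 to 0.098), and its fall in del-4 against WT (-0.91) was lost without WT replicate 1 or 2 (adjusted p = 0.052 and 0.056).
*KLF5* and *PSPC1*, like *C1QTNF9B*, were called in opposite directions against WT, and these were the 3 members of which that was true. The share of all genes called in opposite directions was not counted, so nothing is read from the 3 as a count. *KLF5*, a zinc finger transcription factor gene, had 763, 809 and 715 in WT, 914, 980.0 and 902 for del-4, and 540.0, 570.3 and 492 for del-56, above WT in del-4 and below it in del-56 (0.80 (SE 0.084, adjusted p = 6.8e-04) between the clones). *PSPC1*, a protein of nuclear paraspeckles, had 6023, 6489 and 5974 in WT, 5566, 5705 and 5509 for del-4, and 7943, 8395 and 8261 for del-56, below WT in del-4 and above it in del-56 (-0.55 (SE 0.033, adjusted p = 4.0e-05) between the clones). Against WT in del-4, *KLF5* lost its call without WT replicate 3 or del-4 replicate 2 (adjusted p = 0.057 and 0.055), and *PSPC1* without WT replicate 2 or del-4 replicate 1 or 3 (adjusted p = 0.062 to 0.088).

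By role, 10 lists of chromosome 13 genes were counted, chosen with earlier results of these libraries known. Their counts are read beside shares of all members, which for del-4 were 40.9% lower and 6.41% higher and for del-56 were 41.3% lower and 8.19% higher. The shares of all genes were 18.8% lower and 18.9% higher for del-4, while those for del-56 were 19.4% lower and 18.2% higher. Of 10 tumor suppressor and DNA repair genes, 8 fell in del-4 and 6 fell in del-56 while none rose, with medians of -0.23 and -0.16. The 6 became 3 without any 1 WT library or without del-56 replicate 2, and 1 gene was higher in del-4 without WT replicate 1. *RB1* had 7918, 7978 and 8322 in WT, 6448, 6797 and 6655 for del-4, and 6587, 6703 and 6367 for del-56, *BRCA2* had 2793, 2653 and 2707 in WT, 2034, 2109 and 2041 for del-4, and 2187, 2040.2 and 2234 for del-56, and in both genes all deletion libraries lay below WT. Their log2 fold changes were -0.28 and -0.30 for *RB1* and -0.40 and -0.34 for *BRCA2*. *RFC3*, a subunit of the clamp loader of DNA replication, was at -0.47 and -0.35, whereas *LATS2*, a kinase of the Hippo pathway, was at -0.03 (adjusted p = 0.74) and 0.13 (adjusted p = 0.24).

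Of 11 cell division genes, 7 fell in each clone and none rose (medians -0.18 and -0.17), and 4 were lower in del-56 without WT replicate 2. Of 16 genes of the ubiquitin pathway, 10 fell in del-4, 11 fell in del-56 and none rose (medians -0.16 and -0.18), and the 11 became 6 without WT replicate 2 or del-56 replicate 3 and 7 without WT replicate 3. *CUL4A*, the scaffold of a ubiquitin ligase that also belongs to the cell division list, had 15791, 16363 and 16498 in WT, 13950.4, 14020.5 and 14036 for del-4, and 13907, 14628 and 14559.6 for del-56, a log2 fold change of -0.21 and -0.18. *UBAC2*, a protein of the endoplasmic reticulum membrane, was at -0.15 and -0.16.

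Of 12 genes of mitochondrial proteins, 9 fell in del-4 with no rise, and 6 fell in del-56 with 2 rises (medians -0.24 and -0.18). *MIPEP* was 1 of the 2, and 1 remained without any 1 library other than del-56 replicate 1. *SUCLA2*, a subunit of succinyl-CoA ligase in the citric acid cycle, had 9642, 9379 and 9188 in WT, 7534, 7448 and 7832 for del-4, and 7398, 7814 and 7696 for del-56, a log2 fold change of -0.31 and -0.30. Of 11 genes of the secretory pathway, lysosome and protein folding, 7 fell in del-4, 8 fell in del-56, and *VPS36* rose in each (medians -0.22 and -0.23). The 7 became 4 without WT replicate 3 or del-4 replicate 2. *DNAJC3*, a chaperone of the endoplasmic reticulum that inhibits eIF2alpha kinases, was at -0.43 and -0.33, and *ALG11*, a mannosyltransferase of N-glycosylation, at -0.28 and -0.16.

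Of 14 genes of RNA processing and translation, 7 fell in del-4, 8 fell in del-56, and 2 rose in each clone (medians -0.13 and -0.15). The higher counts ranged from 1 to 4 in del-4 and from 0 to 2 in del-56 with 1 library left out, being 4 without WT replicate 1, 1 without WT replicate 2 or 3 or del-4 replicate 1 or 2, and 0 without WT replicate 2 or 3 or del-56 replicate 2 or 3. Of 23 measured genes of transcription factors and chromatin proteins, 12 fell in del-4, 11 fell in del-56, and 3 rose in each clone (medians -0.20 and -0.19), with 1 higher in del-4 without del-4 replicate 2 and a del-4 median of -0.13 without del-4 replicate 3. Of 23 measured receptor and signaling genes, 9 fell and 2 rose in each clone (medians 0.0096 and -0.16), with 4 higher in del-4 without WT replicate 1 and 1 without WT replicate 3. The del-4 median of this list, near 0, ranged from -0.14 to 0.018 with 1 library left out, being above 0 only without del-4 replicate 1. *TBC1D4*, the AKT substrate that controls glucose transporter traffic, fell the most of these in del-4, having 2069, 2337 and 2222 in WT, 763, 888 and 835 for del-4, and 907, 892 and 952 for del-56, a log2 fold change of -1.41 for del-4 (SE 0.074, adjusted p = 6.7e-06) and -1.27 for del-56 (SE 0.064, adjusted p = 2.6e-06).

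The other 2 lists differed in form. Of 13 measured membrane transporters, 3 fell and 1 rose in del-4, while 2 fell and 2 rose in del-56 (medians -0.15 and -0.10), and the higher count was 2 in del-4 without WT replicate 2 and fell to 0 or 1 in del-56 without any 1 library other than del-56 replicate 1. Its medians were -0.039 in del-4 without del-4 replicate 1 and -0.17 in del-56 without WT replicate 3. Of 13 measured genes of collagens, matrix and adhesion, 1 was lower and 4 were higher in each clone (medians -0.14 and 0.12), and 2 were lower without WT replicate 2 or, in del-4, without del-4 replicate 1. Neither median kept its sign with 1 library left out. The del-4 median ranged from -0.24 without WT replicate 1 to 0.0076 and 0.076 without del-4 replicates 1 and 3, and the del-56 median was -0.060 without WT replicate 2, -0.12 without del-56 replicate 1, and 0.23 to 0.40 without any 1 of WT replicate 1 and del-56 replicates 2 and 3. The 4 included *PCDH20*, *GPC5* and *GPC6* in both clones, and the lower one was *LMO7*, a LIM domain protein of cell junctions, which had 354, 413 and 345 in WT, 223, 182 and 207 for del-4, and 196, 201 and 212 for del-56. Nothing particular to a list is read from these counts.

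**Figure D5:**
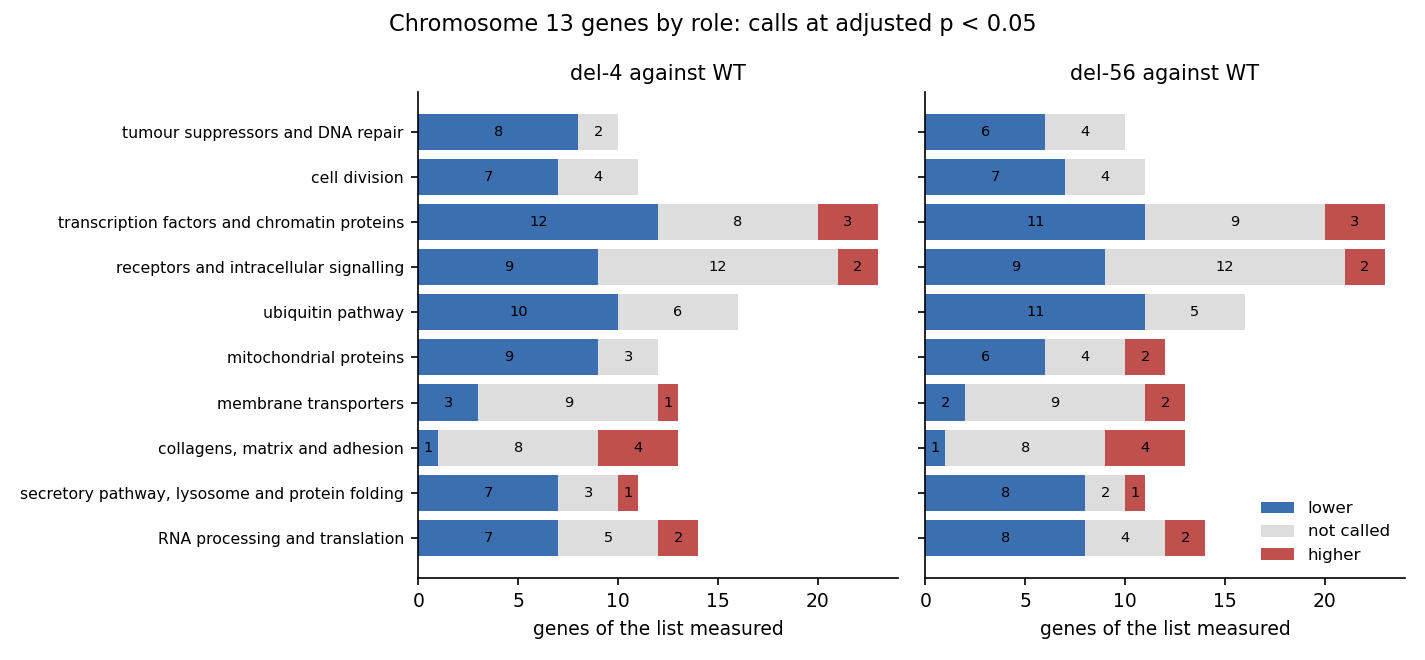
Number of genes called lower, not called and called higher at an adjusted p under 0.05 (x axis) in 10 lists of chromosome 13 genes by role (y axis), for del-4 (left) and del-56 (right) against WT. Lower genes outnumber higher ones in 9 of 10 lists in del-4, and the list of collagens, matrix and adhesion has 4 higher and 1 lower in both clones.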

How the data were processed

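RNA-seq of 3 cultures each of the LNCaP clones del-4, del-56 and WT was used. Per the labels, libraries were poly(A)-enriched and strand-specific. The authors trimmed reads with Trim Galore 0.6.5, aligned them to GRCh38 with STAR 2.71a, counted reads of protein-coding genes with bedtools 2.27.1 multicov, and deposited signal values that are read counts divided by 1 size factor per library. In every library, 100% of the values were whole multiples of 1 step (within 1e-06), from which reads were recovered. Whether counting used strand is not given in the sources used here. Reads in overlapping genes can count for each, and 69 members overlapped another gene of the table, 25 of them on the same strand.

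Positions came from GENCODE version 44, which matched 19905 of 19984 identifiers. With 2 clones in each fit, limma 3.58.1 in R 4.3.3 was run on log2(normalized count + 1) with a variance trend, over genes with a mean of at least 1, with Benjamini-Hochberg adjustment and calls at an adjusted p under 0.05. Named genes had a mean of at least 10, a call in both clones on one side of WT (8 falls and 8 rises, with the 2 further genes of the 10 that rose), or a call between clones without overlap (5 each way). Others were the median and most read gene of each step, neighbours, and examples of the role lists. A fold against libraries all at 0 used a floor of 3 reads per library. Low read counts were mostly even, as if both reads of a pair were counted, so this floor may not cover the counting error. Members and lists were chosen with earlier results of these data known. A few genes that these rules named are not reported here.

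As alternatives, genes were placed by their midpoint, each library was left out in turn, the pseudocount was set to 0.5 or 5, the minimum mean was dropped or raised to 10, libraries were scaled to equal totals or quantile normalized, the 9 libraries were fitted together, replicate numbers were used as a block, and edgeR 4.0.16 or DESeq2 1.42.0 replaced limma. The fits of limma, edgeR and DESeq2 were tested on a simulated comparison of del-4 with WT, with changes larger than most calls here. The medians and the steps along the chromosome were not tested in this way. Other steps ran in Python 3.11.15 with numpy 2.4.6 and pandas 2.3.3.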

Additional observations from a re-analysis of the deposited data

Results flagged for a closer look

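Each number here is the log2 difference of del-4 from del-56, past the threshold of limma's test on all genes. Among the named genes, which had a mean of at least 10 normalized counts, the deletion clones differed most in *SPART* (4.00), *CCDC169-SOHLH2* (2.94), *SOHLH2* (2.68), *SHISA2* (2.29), *PCDH20* (2.11) with the overlapping *ENSG00000197991* (2.11), and *SPRY2* (1.93), all higher in del-4. *GPC6* (0.82), *KLF5* (0.80) and *DOCK9* (0.39) were also higher in del-4. Lower in del-4 were *TNFRSF19* (-1.49), *C1QTNF9B* (-1.14), *MIPEP* (-1.01), *EPSTI1* (-0.98), *LCP1* (-0.80), *PSPC1* (-0.55), *SPATA13* (-0.46), *GPC5* (-0.44), *EFNB2* (-0.41), *TSC22D1* (-0.40), *TGDS* (-0.32) and *ABCC4* (-0.24).

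Of these, *SPART*, *EPSTI1* and *TGDS* lost their call when single libraries were left out. *TGDS* lost it whichever library was left out (adjusted p = 0.058 to 0.12).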

How the results depend on the processing

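No setting reversed the direction of a call of a named gene, or of a median over the chromosome. The chromosome medians moved by more than the spread between libraries under 2 scalings and in some fits with 1 library left out. With libraries rescaled to the same total they were -0.24 in del-4, -0.19 in del-56 and -0.073 between the clones, where the medians of all genes also moved, to -0.072, -0.030 and -0.042. With quantile normalization they were -0.15 in del-4 and -0.14 in del-56. With 1 library left out, the medians ranged from -0.19 to -0.17 in del-4, from -0.17 to -0.15 in del-56 and from -0.029 to -0.011 between the clones. The lowest of these in del-4 moved past the spread, as did those between the clones without del-4 replicate 2 or del-56 replicate 2. Counts of members lower and higher then ranged from 97 to 107 and 14 to 23 in del-4, from 87 to 103 and 16 to 22 in del-56, and from 14 to 24 and 14 to 24 between the clones, of which only the last moved by over 1.5 times. Under all other settings the counts stayed within 1.5 times, at 111 to 138 lower and 16 to 22 higher in del-4, 97 to 120 and 19 to 25 in del-56, and 25 to 38 and 20 to 32 between the clones. Among named genes, 21 of 110 calls were lost under some setting. Replicate numbers were not taken to pair the libraries, since same-numbered libraries had correlations of -0.053 to 0.063 in their deviations, and each library correlated best with its own number between del-4 and the other clones but not between del-56 and WT. With the number as a replicate block, the falls and rises numbered 111 and 19 in del-4, 97 and 19 in del-56, and 25 and 23 between the clones. Depth limits the 37 members with a mean under 10, of which 1 to 3 were called in a comparison.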
